A study of Mus musculus with 8 samples.

Results

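The genes described here build the sugar chains of mucins, glycoproteins and glycolipids, and were measured in epithelial cells from the distal colon of mice. They were chosen by symbol alone: Galnt, B3gnt, B3galt, B4galt, B4galnt, St3gal, St6gal, St6galnac, St8sia, Gcnt, Fut or C1galt followed by a digit, without pseudogenes and opposite-strand transcripts. The rule found 77 of the 53379 gene records, under 76 distinct symbols, because St6galnac2 has 2 records. Of these 77 members, 57 passed the filter on low counts and were tested among 14991 genes in all. No measured value entered the rule. Most members are glycosyltransferases of the Golgi, but the label is not exact. C1galt1c1 (Cosmc) is a chaperone that C1galt1 needs to fold, and B4galt7 and B3galt6 build the linker that joins proteoglycan chains to their core proteins.

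Mucin-type O-glycans start when a polypeptide GalNAc-transferase (Galnt) links N-acetylgalactosamine (GalNAc) to a serine or threonine. C1galt1 then makes the core 1 structure or B3gnt6 the core 3 structure, Gcnt enzymes add branches, and B3gnt, B4galt and B3galt enzymes lengthen the chains. Sialyltransferases, fucosyltransferases and B4galnt enzymes cap them, and the caps affect which lectins and microbes can bind. In the colon these chains make up most of the mass of Muc2, the mucin that forms the mucus gel secreted by goblet cells.

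RNA was sequenced from epithelial cells that were shaken off the distal colon of C57BL/6 mice. The 4 groups had 2 libraries each. RORaΔIEC mice, in which Rora was deleted in the intestinal epithelium, received dextran sulfate sodium (DSS), which damages the colonic epithelium, or were left as controls, and so were RORaf/f mice, which carry the floxed alleles without the deletion. DSS was drunk at 2% (w/v) for 5 days and followed by 3 days of water. The sources used here do not name the Cre line, the age or sex of the mice, or whether replicates came from separate animals. The p-values therefore reflect the spread between libraries alone, and this spread may be technical.

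Rora, the nuclear receptor gene that was targeted, had few reads. It was counted 8 and 5 times in RORaΔIEC DSS, 16 and 14 times in RORaf/f DSS, 4 and 3 times in RORaΔIEC control and 12 and 6 times in RORaf/f control libraries. Its libraries did not overlap between genotypes under either treatment. The difference passed the test under DSS (log2 fold change -1.24, adjusted p = 0.0425) but not in controls (log2 fold change -1.10, adjusted p = 0.238). Totals of expected counts ran between 15971642 and 20418466 per library, and the members took between 0.63% and 0.797% of them. Epithelial markers (Epcam, keratins and others) were summed in CPM (counts-per-million after TMM scaling). The sums were 14900 and 15800 CPM in RORaΔIEC DSS, 14000 and 14200 CPM in RORaf/f DSS, 16800 and 16900 CPM in RORaΔIEC control and 14600 and 14700 CPM in RORaf/f control libraries. Under each treatment they were higher in RORaΔIEC than in RORaf/f. The RORaΔIEC DSS libraries stood apart in other respects. Mitochondrial genes took 5.29% and 4.91% of their counts, against 7.23% to 8.05% in the other libraries. Neutrophil markers summed to 199 and 214 CPM in RORaΔIEC DSS, 10.2 and 11.9 CPM in RORaf/f DSS, and at most 0.381 CPM in the control libraries. Macrophage markers summed to 42.5 and 46.5 CPM in RORaΔIEC DSS, 23 and 22.3 CPM in RORaf/f DSS, 7.69 and 7.1 CPM in RORaΔIEC control and 7.41 and 7.96 CPM in RORaf/f control libraries. Fibroblast markers summed to 12.5 and 11.8 CPM in RORaΔIEC DSS, 5.71 and 6.24 CPM in RORaf/f DSS, 11.3 and 11.8 CPM in RORaΔIEC control and 8.06 and 7.51 CPM in RORaf/f control libraries, and 4 of the 5 tested were higher in RORaΔIEC after DSS. Endothelial markers summed to 6.5 and 5.84 CPM in RORaΔIEC DSS, 8.23 and 9.3 CPM in RORaf/f DSS, 7.56 and 8.08 CPM in RORaΔIEC control and 12.3 and 10.5 CPM in RORaf/f control libraries. Markers of T and NK cells and of B and plasma cells each summed to at most 4.89 CPM in a library. The part of these cells in the results below was not tested. In bulk libraries such as these, fewer cells of a type and less RNA per cell cannot be told apart.

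A few members supplied most of the transcripts. Levels are compared between genes in TPM (transcripts-per-million), which the authors corrected for gene length. St6galnac6, a sialyltransferase of gangliosides and Lewis-type chains, held 21.5% of the summed TPM of all members over the 8 libraries. With B3gnt7, which lengthens lactosamine chains, and St3gal4, which caps them with sialic acid, the share reached 44.6%, and the first 10 members held 70.2%. These 3 kept ranks 1, 2 and 3 in each of the 4 groups. St6galnac6 averaged 934 TPM in RORaΔIEC DSS, 918 TPM in RORaf/f DSS, 679 TPM in RORaΔIEC control and 697 TPM in RORaf/f control libraries. The enzymes that open an O-glycan core were far lower in TPM. C1galt1 averaged 70.9 TPM in RORaΔIEC DSS, 71.6 TPM in RORaf/f DSS, 44.8 TPM in RORaΔIEC control and 39.3 TPM in RORaf/f control libraries. B3gnt6 averaged 2.19 TPM in RORaΔIEC DSS, 9.40 TPM in RORaf/f DSS, 9.52 TPM in RORaΔIEC control and 6.05 TPM in RORaf/f control libraries.

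Summed over all members, the level was 4216 ± 95.4 TPM in RORaΔIEC DSS, 4126 ± 26.9 TPM in RORaf/f DSS, 3297 ± 0.545 TPM in RORaΔIEC control and 3384 ± 83.6 TPM in RORaf/f control libraries (SD, n = 2 each). Each of the 4 DSS libraries lay above each of the 4 control libraries, and the means of the genotypes lay closer to each other than those of the treatments. Fucosyltransferases summed to 414 ± 13.6 TPM in RORaΔIEC DSS and 327 ± 7.21 TPM in RORaf/f DSS, against 216 ± 1.09 TPM in RORaΔIEC control and 213 ± 2.91 TPM in RORaf/f control libraries. The GalNAc-capping class (B4galnt) summed to 217 ± 22.4 TPM in RORaΔIEC DSS and 268 ± 8.43 TPM in RORaf/f DSS, against 152 ± 1.22 TPM in RORaΔIEC control and 131 ± 7.09 TPM in RORaf/f control libraries. The largest class, sialylation, held between 36.1% and 43.3% of the members' summed TPM in a library.

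**Figure D1:**
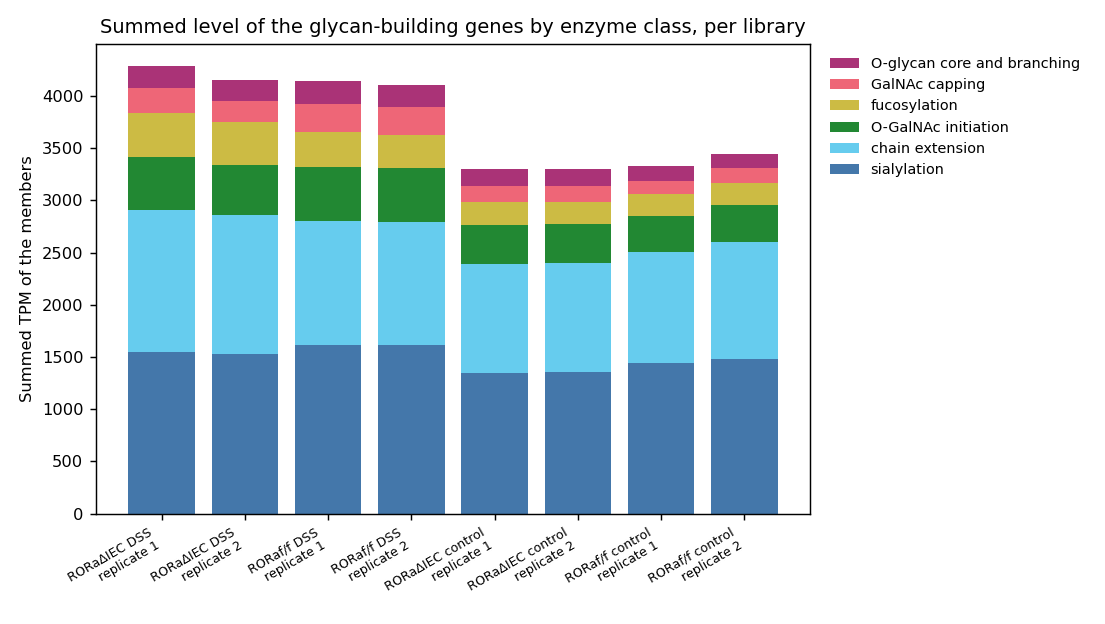
Summed TPM of the members in each of the 8 libraries, stacked by enzyme class (vertical axis from 0, in TPM). The 4 DSS libraries summed to between 4107 and 4284 TPM and the 4 control libraries to between 3297 and 3443 TPM.

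The 20 members left out by the filter had at most 11 counts in any library. B4galt2 and St3gal2 had the most of them, with 56 and 55 counts over the 8 libraries. St6galnac1, which puts sialic acid on the first GalNAc, had 0 to 3 counts per library. St8sia3 had 0 counts in each library, which allows a level of up to 0.15 to 0.191 CPM depending on the library (3 counts, counting error only). The others were B3galt1, B3gnt4, Fut7, Fut10, Galnt9, Galnt13, Galnt14, Galnt15, Galnt16, Gcnt7, St3gal5, St6gal2, St6galnac3, St6galnac5, St8sia2 and St8sia6.

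**Figure D2:**
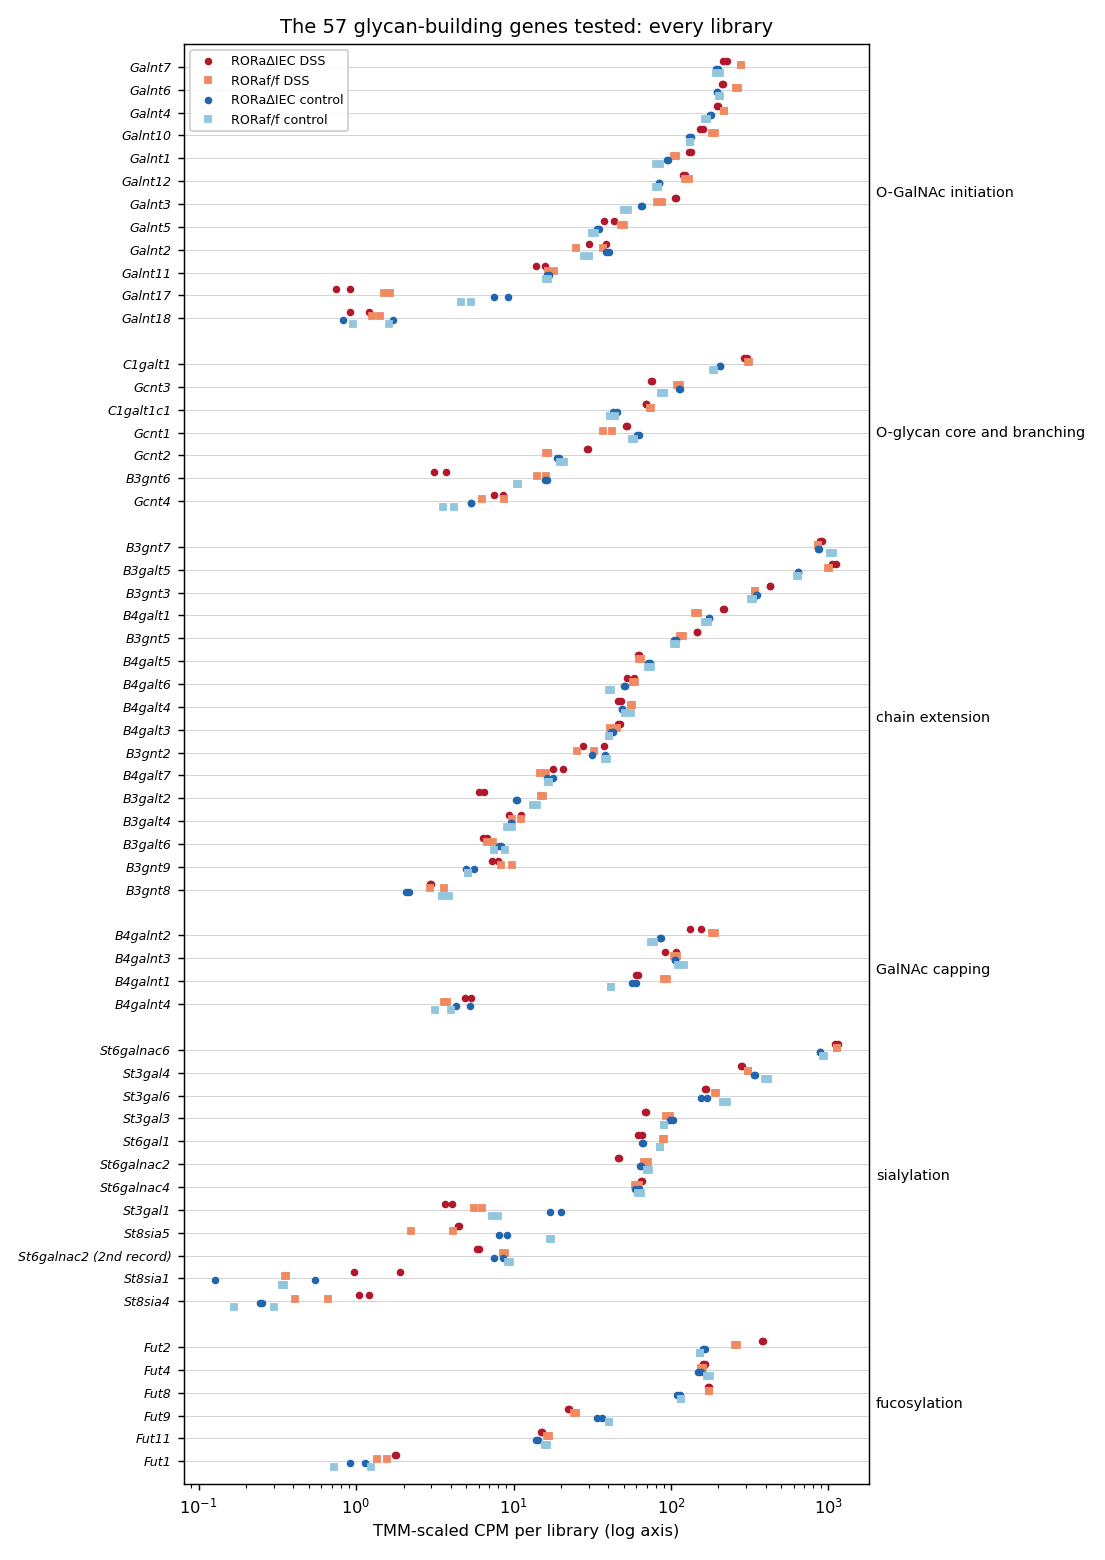
CPM of the 57 tested members in each of the 8 libraries (horizontal log axis), grouped by enzyme class, with 1 symbol per library. B3gnt6 lies at 3.11 and 3.72 CPM in RORaΔIEC DSS and at 10.5 CPM or above in the other 6 libraries.

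The first comparison asked how RORaΔIEC and RORaf/f cells differ after DSS. Of the 57 members tested, 13 were higher and 19 lower in RORaΔIEC DSS than in RORaf/f DSS, which is 32 in all or 56.1%, where 39.1% of all tested genes were called (edgeR quasi-likelihood test, Benjamini-Hochberg adjusted p below 0.05). By direction, 21.3% of all genes were called higher and 17.7% lower. The enzyme of core 3 O-glycans, B3gnt6, fell the most. Most called members of the O-GalNAc initiation and sialylation classes fell as well, with 6 of 8 and 7 of 9. The I-branching enzyme Gcnt2, the galactosyltransferase B4galt1 and the secretor fucosyltransferase Fut2 rose. The median log2 fold change was -0.08 over the members and -0.01 over all genes tested, and the median absolute change was 0.29 and 0.22.

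In the O-glycan core and branching class, 2 of 7 tested rose and 2 fell. The class includes the chaperone C1galt1c1 and Gcnt2, which branches lactosamine chains and not O-glycan cores. B3gnt6 (ENSMUSG00000074004.3, chr7:98192417-98199481 in mm10, minus strand), the core 3 synthase of the colon, had 3.11 and 3.72 CPM in RORaΔIEC DSS, 16.1 and 14.2 CPM in RORaf/f DSS, 15.8 and 16.4 CPM in RORaΔIEC control and 10.5 and 10.7 CPM in RORaf/f control libraries. Both RORaΔIEC DSS libraries lay far below the other 6. Its level after DSS was 4.43-fold lower in RORaΔIEC (log2 fold change -2.15 ± 0.13, adjusted p = 1.13e-08, with the standard error, SE, after the sign ±, as for each fold change that follows). As a share of C1galt1 TPM, the core 1 synthase with which it competes for the same GalNAc, B3gnt6 TPM stood at 2.75% and 3.45% in RORaΔIEC DSS, 14.1% and 12.2% in RORaf/f DSS, 20.8% and 21.7% in RORaΔIEC control and 15.3% and 15.4% in RORaf/f control libraries. C1galt1 itself did not pass the test after DSS (log2 fold change -0.07 ± 0.04, adjusted p = 0.216). Gcnt3 (ENSMUSG00000032226.5, chr9:70031496-70038088 in mm10, minus strand), which makes core 2 and core 4 branches on mucins, had 76.1 and 74.4 CPM in RORaΔIEC DSS, 114 and 109.9 CPM in RORaf/f DSS, 113 and 113 CPM in RORaΔIEC control and 90.2 and 87.0 CPM in RORaf/f control libraries. It was lowest in RORaΔIEC DSS (log2 fold change -0.57 ± 0.05, adjusted p = 3.29e-07). Gcnt2 (ENSMUSG00000021360.16, chr13:40859754-40960892 in mm10, plus strand), which branches lactosamine chains, had 29.6 and 29.4 CPM in RORaΔIEC DSS, 16.1 and 16.5 CPM in RORaf/f DSS, 19.6 and 18.9 CPM in RORaΔIEC control and 20.8 and 19.7 CPM in RORaf/f control libraries. It was highest in RORaΔIEC DSS and was lowest in RORaf/f DSS (log2 fold change 0.85 ± 0.07, adjusted p = 4.73e-07). Gcnt1, the widely expressed core 2 enzyme, had 52.0 and 52.9 CPM in RORaΔIEC DSS, 37.2 and 41.9 CPM in RORaf/f DSS, 62.6 and 61.1 CPM in RORaΔIEC control and 57.9 and 56.8 CPM in RORaf/f control libraries. After DSS it was higher in RORaΔIEC (log2 fold change 0.41 ± 0.06, adjusted p = 0.000117), although both DSS groups lay below the controls.

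Of the 12 tested Galnt genes, which start O-glycans, 6 fell and 2 rose, and their median log2 fold change was -0.24. Galnt7, Galnt6, Galnt5, Galnt10 and Galnt4 fell by 0.14 to 0.35 on the log2 scale. Galnt6 shares 11.4% of its exon bases with Galnt6os on the other strand. Galnt7, which prefers peptides that already carry GalNAc, had 226 and 214 CPM in RORaΔIEC DSS, 279.8 and 279.6 CPM in RORaf/f DSS, 193 and 198 CPM in RORaΔIEC control and 194 and 205 CPM in RORaf/f control libraries (log2 fold change -0.35 ± 0.04, adjusted p = 2.71e-05). Its RORaf/f DSS libraries stood above the other 6. Galnt3 had 106 and 107 CPM in RORaΔIEC DSS, 82.0 and 88.3 CPM in RORaf/f DSS, 64.6 and 65.1 CPM in RORaΔIEC control and 53.5 and 50.04 CPM in RORaf/f control libraries, so that its RORaΔIEC libraries were the higher of each treatment (log2 fold change 0.32 ± 0.05, adjusted p = 0.000162). The same held for Galnt1, with 135 and 130.2 CPM in RORaΔIEC DSS, 105 and 107 CPM in RORaf/f DSS, 96.1 and 94.5 CPM in RORaΔIEC control and 85.0 and 80.6 CPM in RORaf/f control libraries (log2 fold change 0.32 ± 0.05, adjusted p = 7.09e-05). Galnt17, a low-count member, had 0.92 and 0.744 CPM in RORaΔIEC DSS, 1.502 and 1.65 CPM in RORaf/f DSS, 9.21 and 7.47 CPM in RORaΔIEC control and 4.66 and 5.38 CPM in RORaf/f control libraries. Both DSS groups lay well below the controls, and RORaΔIEC DSS was the lowest group (log2 fold change -0.92 ± 0.30, adjusted p = 0.0254). That call was lost without RORaf/f DSS replicate 1 (adjusted p = 0.0663), RORaf/f DSS replicate 2 (0.113) or RORaΔIEC DSS replicate 2 (0.126), with DESeq2 (0.0872) and with the authors' effective gene lengths as offsets (log2 fold change -0.63, adjusted p = 0.296). Galnt4 lost its call without RORaf/f DSS replicate 1 (0.0693) or 2 (0.0645), and the change of Galnt5 shrank to -0.18 without RORaΔIEC DSS replicate 2.

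Among the 16 tested genes of chain extension, 5 rose and 2 fell. B4galt1 (ENSMUSG00000028413.13, chr4:40804602-40854005 in mm10, minus strand), which adds the galactose of lactosamine, had 218 and 214 CPM in RORaΔIEC DSS, 149 and 142 CPM in RORaf/f DSS, 175 and 174 CPM in RORaΔIEC control and 164 and 171 CPM in RORaf/f control libraries. RORaΔIEC DSS was its highest group and RORaf/f DSS its lowest (log2 fold change 0.57 ± 0.04, adjusted p = 1.94e-07). B3gnt5, which starts lacto-series glycolipids, had 147 and 146 CPM in RORaΔIEC DSS, 113 and 120.0 CPM in RORaf/f DSS, 107 and 105 CPM in RORaΔIEC control and 105 and 107 CPM in RORaf/f control libraries (log2 fold change 0.33 ± 0.05, adjusted p = 5.3e-05). B3gnt3, which extends core 1 chains, had 426 and 427 CPM in RORaΔIEC DSS, 341 and 344 CPM in RORaf/f DSS, 351 and 348 CPM in RORaΔIEC control and 324 and 333 CPM in RORaf/f control libraries (log2 fold change 0.31 ± 0.04, adjusted p = 1.6e-05). For both genes the RORaΔIEC DSS libraries were the highest of the 8. The other 2 rises, of B4galt7 and B3galt5, were of 0.31 and 0.12 on the log2 scale. That of B4galt7 lost its call without RORaf/f DSS replicate 1 (adjusted p = 0.132) or RORaΔIEC DSS replicate 2 (log2 fold change 0.20, adjusted p = 0.148), with DESeq2 (0.122) and with effective-length offsets (0.0878), and that of B3galt5 when any library other than RORaΔIEC DSS replicate 2 was left out (adjusted p between 0.0501 and 0.156). B3galt2 (ENSMUSG00000033849.3, chr1:143640664-143654614 in mm10, plus strand), a galactosyltransferase of type 1 chains, had 6.44 and 6.07 CPM in RORaΔIEC DSS, 14.8 and 15.3 CPM in RORaf/f DSS, 10.5 and 10.4 CPM in RORaΔIEC control and 14.1 and 13.3 CPM in RORaf/f control libraries. Its level was 2.41-fold lower in RORaΔIEC DSS than in RORaf/f DSS (log2 fold change -1.27 ± 0.10, adjusted p = 2.33e-07). It shares 7.31% of its exon bases with Cdc73 on the other strand. B4galt4, with a log2 fold change of -0.25 ± 0.06, was the other fall (adjusted p = 0.00294).

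Among the capping enzymes, 7 of the 12 sialyltransferase records tested were lower and 2 higher. St3gal1 (ENSMUSG00000013846.9, chr15:67102875-67176830 in mm10, minus strand), which sialylates core 1 O-glycans, had 3.68 and 4.06 CPM in RORaΔIEC DSS, 5.65 and 6.30 CPM in RORaf/f DSS, 19.9 and 17.0 CPM in RORaΔIEC control and 7.31 and 8.01 CPM in RORaf/f control libraries. Its 4 DSS libraries lay below its 4 control libraries, and RORaΔIEC DSS was the lowest group (log2 fold change -0.62 ± 0.16, adjusted p = 0.00555). Without RORaf/f DSS replicate 2 the log2 fold change was -0.55 and the adjusted p 0.0514. St6galnac2, which sialylates the GalNAc of O-glycans, had 46.3 and 46.6 CPM in RORaΔIEC DSS, 66.9 and 71.2 CPM in RORaf/f DSS, 63.5 and 65.0 CPM in RORaΔIEC control and 73.0 and 70.3 CPM in RORaf/f control libraries in its main record (log2 fold change -0.57 ± 0.05, adjusted p = 1.24e-06). The second, shorter record fell by 0.54 on the log2 scale (adjusted p = 0.00265), and shares 22.8% of its exon bases with the main one, so that reads may be split between them. With both records summed the log2 fold change was -0.57. St3gal3, of type 1 chains, had 69.2 and 68.7 CPM in RORaΔIEC DSS, 98.7 and 92.8 CPM in RORaf/f DSS, 97.9 and 102 CPM in RORaΔIEC control and 90.2 and 90.7 CPM in RORaf/f control libraries (log2 fold change -0.47 ± 0.05, adjusted p = 4.06e-06). RORaΔIEC DSS was its lowest group.

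St6gal1 (ENSMUSG00000022885.15, chr16:23224740-23360350 in mm10, plus strand), which caps N-glycans with sialic acid, had 65.2 and 61.9 CPM in RORaΔIEC DSS, 89.7 and 88.6 CPM in RORaf/f DSS, 65.3 and 65.99 CPM in RORaΔIEC control and 85.3 and 85.0 CPM in RORaf/f control libraries. Both RORaΔIEC groups lay below both RORaf/f groups, and after DSS the difference was -0.49 ± 0.05 (SE) on the log2 scale (adjusted p = 2.18e-06). Rora binds the half-site AGGTCA, which other nuclear receptors also use. RefSeq promoter windows (GRCm38.p6, 250 bases before to 50 after each annotated start) were found for 55 of the 76 member symbols, 75 windows in all. The letters AGGTCA, on either strand, stood in 4 of these 75 windows (5.33%) and in 5340 of all 32851 windows (16.3%). The 4 windows belonged to St6gal1, B3galt5, St8sia1 and Galnt15. No window was found for B3gnt6, Gcnt3, St3gal1, B4galnt1, Fut2 and St8sia5, among others. These genes were therefore not searched, and the share above does not cover them. Of the members lower in both genotype comparisons, St3gal4 (1 window), St3gal6 (2 windows) and B3galt2 (1 window) have no match. St6gal1, lower in both as well, has the match in 1 of its 3 windows, 101 bases before the start. B3galt5, a member that rose with DSS in both genotypes, has the match in 1 of its 3 windows, 192 bases before the start. Both of these starts lie inside the span of their gene and not at its first base, and their use in these cells was not tested. The 250 bases before the St6gal1 start (chr16:23290220-23290469, plus strand) and 60 bases around the match of B3galt5 (chr16:96273294-96273353, plus strand) are printed with the match in capitals.
St6gal1: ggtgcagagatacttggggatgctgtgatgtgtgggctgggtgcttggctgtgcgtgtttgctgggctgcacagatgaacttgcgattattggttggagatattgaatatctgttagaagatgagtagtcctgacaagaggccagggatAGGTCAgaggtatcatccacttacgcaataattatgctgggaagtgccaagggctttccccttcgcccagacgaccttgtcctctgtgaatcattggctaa
B3galt5: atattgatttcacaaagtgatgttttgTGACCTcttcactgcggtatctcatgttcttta
The B3galt5 match reads TGACCT because it lies on the opposite strand. A match describes letters in a window and not a bound site, and windows without a match say nothing about binding elsewhere.

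St3gal4 and St3gal6, which sialylate lactosamine chains, were also lower in RORaΔIEC DSS. St3gal6 had 163 and 167 CPM in RORaΔIEC DSS, 194 and 191 CPM in RORaf/f DSS, 169 and 156 CPM in RORaΔIEC control and 225 and 215 CPM in RORaf/f control libraries (log2 fold change -0.22 ± 0.05, adjusted p = 0.00227). It shares 26% of its exon bases with Dcbld2 on the other strand, and the strand setting of the counts is not given in the sources used here. For St3gal4, with 277 and 281 CPM in RORaΔIEC DSS, 307 and 309.8 CPM in RORaf/f DSS, 336 and 339 CPM in RORaΔIEC control and 412 and 397 CPM in RORaf/f control libraries, the difference after DSS was -0.14 ± 0.04 on the log2 scale (adjusted p = 0.0103), and the call was lost without RORaf/f DSS replicate 1 (adjusted p = 0.0526) or 2 (0.0664). With effective-length offsets the difference was -0.23 (adjusted p = 0.00539). St3gal4 shares 14.1% of its exon bases with 4930581F22Rik on the other strand. The higher sialyltransferases were 2 genes with few counts that act on gangliosides and on polysialic acid. St8sia1 had 1.90 and 0.973 CPM in RORaΔIEC DSS, 0.36 and 0.353 CPM in RORaf/f DSS, 0.127 and 0.551 CPM in RORaΔIEC control and 0.35 and 0.336 CPM in RORaf/f control libraries (log2 fold change 1.99 ± 0.51, adjusted p = 0.00637), and its call was lost without RORaΔIEC DSS replicate 1 (log2 fold change 1.43, adjusted p = 0.0677). St8sia4 had 1.04 and 1.20 CPM in RORaΔIEC DSS, 0.661 and 0.412 CPM in RORaf/f DSS, 0.254 and 0.245 CPM in RORaΔIEC control and 0.3 and 0.168 CPM in RORaf/f control libraries (log2 fold change 1.05 ± 0.39, adjusted p = 0.047), and its call was lost when any 1 of the 8 libraries was left out (adjusted p between 0.0507 and 0.249) and with DESeq2 (0.343). Neutrophil and macrophage markers were highest in the same group, at the values given above, and their part in these 2 results was not tested.

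Among the fucosyltransferases, Fut2 alone of 6 tested passed the test. Fut2 (ENSMUSG00000055978.5, chr7:45648591-45666394 in mm10, minus strand), which adds the terminal fucose that gut microbes use, had 381 and 379.7 CPM in RORaΔIEC DSS, 264 and 256 CPM in RORaf/f DSS, 159 and 165 CPM in RORaΔIEC control and 154 and 153 CPM in RORaf/f control libraries. The DSS libraries lay above the controls and RORaΔIEC DSS above RORaf/f DSS, 1.46-fold (log2 fold change 0.55 ± 0.04, adjusted p = 1.09e-07). The 4 B4galnt genes, which cap with GalNAc, gave 2 falls and 1 rise. B4galnt1 (ENSMUSG00000006731.10, chr10:127165225-127172330 in mm10, plus strand), a ganglioside synthase, had 59.7 and 62.0 CPM in RORaΔIEC DSS, 94.0 and 90.3 CPM in RORaf/f DSS, 60.2 and 56.6 CPM in RORaΔIEC control and 41.9 and 41.5 CPM in RORaf/f control libraries. It was highest in RORaf/f DSS, and the 2 RORaΔIEC groups stood close to each other (log2 fold change -0.60 ± 0.05, adjusted p = 5.02e-07). B4galnt2, which makes the Sda antigen of the colon, had 155 and 133 CPM in RORaΔIEC DSS, 189 and 182 CPM in RORaf/f DSS, 85.0 and 86.1 CPM in RORaΔIEC control and 74.2 and 77.8 CPM in RORaf/f control libraries (log2 fold change -0.36 ± 0.06, adjusted p = 0.000276). The rise of B4galnt4 (0.48 ± 0.18, adjusted p = 0.0438) was lost without any 1 of the 4 DSS libraries (adjusted p between 0.0659 and 0.166), with DESeq2 (0.239) and with effective-length offsets (0.147).

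Goblet cell markers moved in the same comparison. The 10 markers summed to 8170 and 8240 CPM in RORaΔIEC DSS and 10300 and 10000 CPM in RORaf/f DSS, against 16800 and 16900 CPM in RORaΔIEC control and 17200 and 17500 CPM in RORaf/f control libraries. After DSS, 5 of the 10 were lower in RORaΔIEC and none was higher. The 8 colonocyte markers summed to 3710 and 3820 CPM in RORaΔIEC DSS and 4360 and 4410 CPM in RORaf/f DSS, against 7210 and 7200 CPM in RORaΔIEC control and 7120 and 7040 CPM in RORaf/f control libraries. Their part in the changes of the members was not tested.

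The second comparison asked how the genotypes differ without DSS. Of the 57 members, 10 were higher and 9 lower in RORaΔIEC control than in RORaf/f control, which is 33.3%, where 15.4% of all tested genes were called (9.19% higher and 6.22% lower). O-glycan initiation and core enzymes were called higher only, with 4 of 12 Galnt genes and 3 of 7 core and branching genes. Sialyltransferases were called lower in 4 of 12 records and higher in 1. The changes were smaller than after DSS, with a median absolute log2 fold change of 0.13 over the members and 0.14 over all genes. Without RORaΔIEC control replicate 1 the counts were 6 higher and 5 lower. Without RORaΔIEC control replicate 2 the number of lower members was 5.

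St3gal1 rose the most, and its 2 RORaΔIEC control libraries stood above the other 6 (log2 fold change 1.27 ± 0.11, adjusted p = 4.25e-06). B3gnt6 (log2 fold change 0.61 ± 0.10, adjusted p = 8e-04), B4galnt1 (log2 fold change 0.49 ± 0.06, adjusted p = 4.58e-05) and Gcnt3 (log2 fold change 0.35 ± 0.05, adjusted p = 0.000126) were higher too. These 4 genes had each been lower in RORaΔIEC after DSS. Galnt3 rose by 0.32 ± 0.06 on the log2 scale (adjusted p = 0.00134), and with effective-length offsets its change was 0.19 (adjusted p = 0.147). B4galt6, a lactosylceramide synthase, had 58.1 and 52.4 CPM in RORaΔIEC DSS, 59.5 and 57.2 CPM in RORaf/f DSS, 50.5 and 51.0 CPM in RORaΔIEC control and 40.6 and 41.6 CPM in RORaf/f control libraries (log2 fold change 0.30 ± 0.06, adjusted p = 0.00353). Its RORaf/f control libraries were the lowest of the 8. Galnt2 had 38.6 and 29.99 CPM in RORaΔIEC DSS, 37.2 and 24.9 CPM in RORaf/f DSS, 40.4 and 38.9 CPM in RORaΔIEC control and 28.2 and 30.2 CPM in RORaf/f control libraries (log2 fold change 0.44 ± 0.14, adjusted p = 0.0451), but 90% of its exon bases lie in the overlapping gene model Gm20388, so that its count is uncertain. Its change was 0.21 with effective-length offsets (adjusted p = 0.574), and its call was also lost with DESeq2 (0.294) or when either library of either control group was left out (adjusted p between 0.128 and 0.246).

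Further rises were smaller or came from a member averaging below 5 CPM. Galnt1 rose by 0.20 ± 0.05 (adjusted p = 0.0113), a call lost without RORaf/f control replicate 2 (0.12), RORaΔIEC control replicate 1 (0.112) or RORaΔIEC control replicate 2 (0.0732), and with DESeq2 (0.0522). C1galt1 rose by 0.14 ± 0.04 (adjusted p = 0.0369), and this call was lost without any 1 of the 4 control libraries (adjusted p between 0.137 and 0.205) or either RORaf/f DSS library (0.0626 and 0.0664). It was also lost with DESeq2 (0.105), effective-length offsets (0.0942), no filter on low counts (0.086) and the replicate block (0.0511), at changes of 0.13 to 0.14. Galnt17 rose by 0.73 ± 0.16 (adjusted p = 0.00538), which was lost without RORaf/f control replicate 1 (0.0748) or RORaΔIEC control replicate 1 (0.102), with DESeq2 (0.0799) and with effective-length offsets (log2 fold change 0.51, adjusted p = 0.272).

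The falls without DSS were led by St8sia5, a sialyltransferase of gangliosides, with 4.49 and 4.46 CPM in RORaΔIEC DSS, 4.15 and 2.24 CPM in RORaf/f DSS, 9.02 and 8.08 CPM in RORaΔIEC control and 17.3 and 17.1 CPM in RORaf/f control libraries. Its RORaΔIEC control libraries lay between the RORaf/f controls and the DSS libraries (log2 fold change -1.01 ± 0.14, adjusted p = 0.000228). Sialyltransferases of N-glycans and lactosamine chains followed, with St3gal6 (log2 fold change -0.44 ± 0.05, adjusted p = 2.75e-05), St6gal1 (log2 fold change -0.38 ± 0.05, adjusted p = 0.000109) and St3gal4 (log2 fold change -0.26 ± 0.04, adjusted p = 0.000436). B3gnt7 (ENSMUSG00000079445.3, chr1:86302832-86307305 in mm10, plus strand), the second most abundant member in TPM, had 884 and 913 CPM in RORaΔIEC DSS, 857 and 856 CPM in RORaf/f DSS, 864 and 865 CPM in RORaΔIEC control and 1029 and 1063 CPM in RORaf/f control libraries. Its RORaf/f control libraries were the highest of the 8 (log2 fold change -0.28 ± 0.04, adjusted p = 0.000183), and 12.6% of its exon bases lie opposite Gm28626. B3galt2 fell by 0.40 on the log2 scale (adjusted p = 0.00997), a call lost without RORaf/f control replicate 1 (0.0911), RORaΔIEC control replicate 1 (0.0764) or RORaΔIEC control replicate 2 (0.0854) and with DESeq2 (0.138).

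Fut4 and Fut9, both Lewis x enzymes, were also lower in RORaΔIEC control. Fut4 had 159.8 and 165 CPM in RORaΔIEC DSS, 155 and 159 CPM in RORaf/f DSS, 149 and 155 CPM in RORaΔIEC control and 170.5 and 178 CPM in RORaf/f control libraries (log2 fold change -0.19 ± 0.04, adjusted p = 0.00913). Fut9 had 22.1 and 22.4 CPM in RORaΔIEC DSS, 24.8 and 24.1 CPM in RORaf/f DSS, 36.4 and 33.9 CPM in RORaΔIEC control and 40.3 and 40.6 CPM in RORaf/f control libraries (log2 fold change -0.20 ± 0.06, adjusted p = 0.0317). The Fut9 call was lost when any 1 of the 4 control libraries was left out (adjusted p between 0.0633 and 0.267), with DESeq2 (0.247) and with effective-length offsets (0.216), and the Fut4 call without RORaf/f control replicate 2 (0.0955), RORaΔIEC control replicate 1 (0.132) or RORaΔIEC control replicate 2 (0.0504). B3gnt8, with few counts, had a log2 fold change of -0.81 ± 0.20 (adjusted p = 0.0131), a call lost without RORaf/f control replicate 1 (0.101), RORaΔIEC control replicate 1 (0.077) or RORaΔIEC control replicate 2 (0.095), and with DESeq2 (0.12). With effective-length offsets its change was -0.43 (adjusted p = 0.354), and it shares 18.1% of its exon bases with Bckdha on the other strand. Of the 10 goblet markers, 3 were higher and 4 lower in RORaΔIEC control, and neutrophil markers were near 0 in these libraries.

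The 2 genotype comparisons share no library and can be set side by side. Both rest on 1 fit to all 8 libraries with a shared estimate of the spread, so their calls are not independent. Of the members, 11 or 19.3% were called in both, where 9.99% of all tested genes were. St3gal1, Galnt17, B3gnt6, B4galnt1 and Gcnt3 were higher in RORaΔIEC without DSS and lower in RORaΔIEC with DSS, which is 8.77% of the members and 1.28% of all genes. No member was lower without DSS and higher with it, against 0.627% of all genes. St6gal1, St3gal4, St3gal6 and B3galt2 were lower in RORaΔIEC under both treatments, and Galnt3 and Galnt1 were higher under both. Calls of St3gal1, Galnt17, St3gal4, B3galt2, Galnt3 and Galnt1 did not hold under every alternative, at the values given above.

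**Figure D3:**
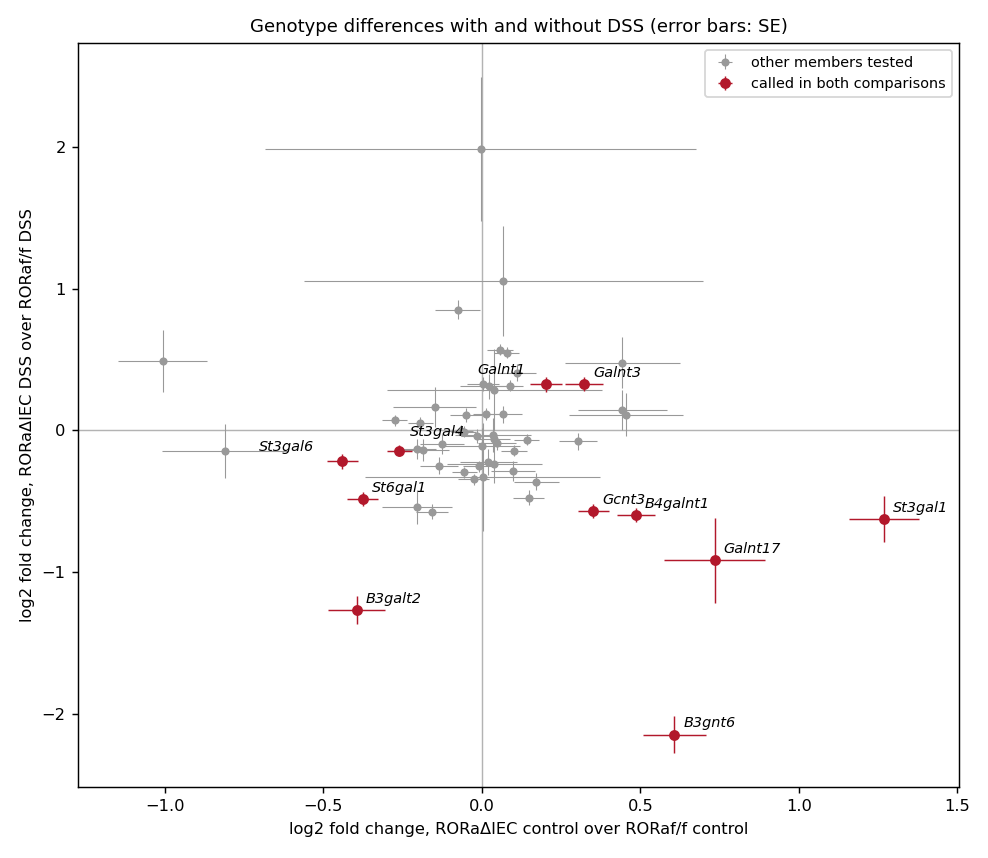
Log2 fold change of RORaΔIEC over RORaf/f in control libraries (horizontal axis) and in DSS libraries (vertical axis) for the 57 tested members, with SE as error bars. The 11 red points passed the test in both comparisons, and 5 of them, St3gal1, Galnt17, B3gnt6, B4galnt1 and Gcnt3, lie at the lower right.

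The third comparison asked what DSS changed in RORaf/f cells. Of the 57 members, 22 were higher and 12 lower in RORaf/f DSS than in RORaf/f control, which is 59.6%, where 37.2% of all tested genes were called (18.9% higher and 18.3% lower). Of the 12 tested Galnt genes, which start O-glycans, 8 rose, 1 fell and 3 did not pass the test. Of the 7 core and branching genes, 5 rose and 2, Gcnt1 and Gcnt2, fell. The median log2 fold change was 0.09 over the members and -0.01 over all genes tested. Of the 12 sialyltransferase records, 3 were lower and 1 higher. Of the 10 goblet markers, 3 rose and 5 fell, and of the 8 colonocyte markers, 1 rose and 7 fell, at the summed levels given above. Their part in the changes of the members was not tested.

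B4galnt2 rose the most, 2.44-fold (log2 fold change 1.29 ± 0.06, adjusted p = 2.56e-09), followed by B4galnt1 (log2 fold change 1.14 ± 0.05, adjusted p = 1.26e-09). B4galnt1 shares 20.7% of its exon bases with Slc26a10, and B4galnt2 shares 15.3% with Gm11534, in both cases on the other strand. C1galt1 (ENSMUSG00000042460.5, chr6:7844842-7875687 in mm10, plus strand) had 305 and 290.1 CPM in RORaΔIEC DSS, 309 and 314 CPM in RORaf/f DSS, 205 and 204 CPM in RORaΔIEC control and 185 and 186 CPM in RORaf/f control libraries (log2 fold change 0.75 ± 0.04, adjusted p = 7.93e-09). Its partner C1galt1c1, the chaperone, had 69.8 and 69.1 CPM in RORaΔIEC DSS, 73.1 and 74.7 CPM in RORaf/f DSS, 45.4 and 42.6 CPM in RORaΔIEC control and 43.9 and 41.2 CPM in RORaf/f control libraries (log2 fold change 0.80 ± 0.05, adjusted p = 6.54e-08). For both genes each DSS library lay above each control library. Fut2 rose in RORaf/f as well (log2 fold change 0.76 ± 0.04, adjusted p = 6.93e-09), and so did Galnt3 (log2 fold change 0.72 ± 0.05, adjusted p = 1.98e-07). Gcnt4, a core 2 enzyme, had 8.57 and 7.55 CPM in RORaΔIEC DSS, 8.65 and 6.30 CPM in RORaf/f DSS, 5.34 and 5.39 CPM in RORaΔIEC control and 4.20 and 3.59 CPM in RORaf/f control libraries (log2 fold change 0.93 ± 0.17, adjusted p = 0.000726). B3gnt9 had 7.31 and 8.01 CPM in RORaΔIEC DSS, 8.35 and 9.71 CPM in RORaf/f DSS, 4.96 and 5.63 CPM in RORaΔIEC control and 5.16 and 5.16 CPM in RORaf/f control libraries (log2 fold change 0.81 ± 0.13, adjusted p = 0.000309). The counts of these last 2 were low, and B3gnt9 shares 16.5% of its exon bases with D230025D16Rik on the other strand.

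St8sia5 fell the most of all members in RORaf/f cells, 5.39-fold (log2 fold change -2.43 ± 0.17, adjusted p = 7.66e-08). Fut9 (log2 fold change -0.73 ± 0.06, adjusted p = 7.31e-07), Gcnt1 (log2 fold change -0.54 ± 0.06, adjusted p = 1.03e-05), St3gal4 (log2 fold change -0.39 ± 0.04, adjusted p = 3.7e-06) and B3gnt7 (log2 fold change -0.29 ± 0.04, adjusted p = 4.17e-05) fell too. Galnt17, below the 5 CPM limit, fell by 1.66 on the log2 scale (adjusted p = 2.79e-05). B3gnt2, of lactosamine chains, had 37.3 and 27.5 CPM in RORaΔIEC DSS, 25.2 and 32.6 CPM in RORaf/f DSS, 38.3 and 31.3 CPM in RORaΔIEC control and 39.1 and 38.0 CPM in RORaf/f control libraries (log2 fold change -0.42 ± 0.13, adjusted p = 0.0231), and 58.6% of its exon bases lie in Gm28048. Without RORaf/f DSS replicate 1 its change was -0.24 (adjusted p = 0.262). Its call was also lost without RORaf/f control replicate 1 (0.119) or 2 (0.0756), with DESeq2 (0.167) and with effective-length offsets (0.156). Gcnt2 fell by 0.31 (adjusted p = 0.00485), a call lost without RORaf/f control replicate 1 (0.0531) and with DESeq2 (0.0697). B4galt5, the other lactosylceramide synthase, had 62.2 and 61.5 CPM in RORaΔIEC DSS, 64.6 and 62.7 CPM in RORaf/f DSS, 71.9 and 73.4 CPM in RORaΔIEC control and 71.8 and 75.2 CPM in RORaf/f control libraries (log2 fold change -0.21 ± 0.05, adjusted p = 0.00461), and its call was lost without RORaf/f control replicate 2 (0.054) or RORaf/f DSS replicate 2 (0.0515).

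The fourth comparison asked the same of RORaΔIEC cells. Of the 57 members, 23 were higher and 13 lower in RORaΔIEC DSS than in RORaΔIEC control, which is 63.2%, where 41.6% of all tested genes were called (21.7% higher and 19.8% lower). Among members averaging at least 5 CPM, Fut2 led the rises, 2.35-fold (log2 fold change 1.23 ± 0.04, adjusted p = 1.68e-11), and St3gal1 and B3gnt6 led the falls, 4.75-fold and 4.71-fold. Of the 12 Galnt genes, 8 rose and 1, Galnt17, fell. Of the 12 sialyltransferase records, 3 rose and 6 fell, and of the 7 core and branching genes, 4 rose and 3 fell. Of the 10 goblet markers, 2 rose and 7 fell, of the 8 colonocyte markers 7 fell, and all 7 neutrophil markers rose. Their part in these changes was not tested either.

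B3galt5 (ENSMUSG00000074892.9, chr16:96235801-96319859 in mm10, plus strand), the enzyme of type 1 chains in the colon, had 1109 and 1051 CPM in RORaΔIEC DSS, 1002 and 992 CPM in RORaf/f DSS, 637 and 637 CPM in RORaΔIEC control and 628 and 636 CPM in RORaf/f control libraries. Each of its DSS libraries exceeded each of its control libraries (log2 fold change 0.76 ± 0.04, adjusted p = 1.33e-09). B4galnt2 (log2 fold change 0.75 ± 0.07, adjusted p = 3.82e-07), Galnt3 (log2 fold change 0.72 ± 0.05, adjusted p = 6.69e-08), C1galt1c1 (log2 fold change 0.66 ± 0.06, adjusted p = 2.8e-07) and Gcnt2 (log2 fold change 0.61 ± 0.07, adjusted p = 6.81e-06) rose as well. Fut8, the core fucosyltransferase of N-glycans, had 174 and 172 CPM in RORaΔIEC DSS, 174 and 175 CPM in RORaf/f DSS, 114 and 109.6 CPM in RORaΔIEC control and 117 and 116 CPM in RORaf/f control libraries (log2 fold change 0.63 ± 0.04, adjusted p = 2.74e-08). Between the DSS groups its log2 fold change was -0.01 ± 0.04 (adjusted p = 0.865). Gcnt4 rose by 0.59 ± 0.16 (adjusted p = 0.01), a call lost without RORaΔIEC control replicate 1 (0.0598), RORaΔIEC control replicate 2 (0.0572) or RORaΔIEC DSS replicate 1 (0.0542), and with DESeq2 (0.0566). St8sia4 (log2 fold change 2.13 ± 0.47, adjusted p = 0.00201) and St8sia1 (log2 fold change 2.04 ± 0.52, adjusted p = 0.00546) rose, both with few counts. The St8sia1 call was lost without RORaΔIEC DSS replicate 1 (log2 fold change 1.49, adjusted p = 0.061) or RORaΔIEC control replicate 1 (1.37, adjusted p = 0.0695), and its value was 3.43 without RORaΔIEC control replicate 2.

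Of the 13 falls, 6 were falls in RORaf/f too. St3gal1 (log2 fold change -2.25 ± 0.13, adjusted p = 4.67e-09) and B3gnt6 (log2 fold change -2.24 ± 0.13, adjusted p = 3.52e-09) were followed by St8sia5 (log2 fold change -0.93 ± 0.18, adjusted p = 0.000701), B3galt2 (log2 fold change -0.74 ± 0.11, adjusted p = 7.26e-05), Fut9 (log2 fold change -0.66 ± 0.07, adjusted p = 1.8e-06) and Gcnt3 (log2 fold change -0.59 ± 0.05, adjusted p = 1.62e-07). St3gal3 fell by 0.54 (adjusted p = 8.03e-07) and St6galnac2 by 0.47 (adjusted p = 7.42e-06). Galnt17, at under 1 CPM in both RORaΔIEC DSS libraries, fell by 3.31 (adjusted p = 2.2e-08).

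Set side by side, 18 members rose with DSS in both genotypes, which is 81.8% of the 22 in RORaf/f and 78.3% of the 23 in RORaΔIEC. Over all genes, the shared rises were 55.9% of those in RORaf/f and 48.6% of those in RORaΔIEC. Of the falls, 6 were shared, 50% of the 12 in RORaf/f and 46.2% of the 13 in RORaΔIEC, where the shares over all genes were 51.5% and 47.4%. The other 4 members called in both, 7.02% of the members, moved in opposite directions, as did 2.07% of all genes. B3gnt6 and Gcnt3 rose in RORaf/f and fell in RORaΔIEC, whereas Gcnt2 and B4galt1 fell in RORaf/f and rose in RORaΔIEC.

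**Figure D4:**
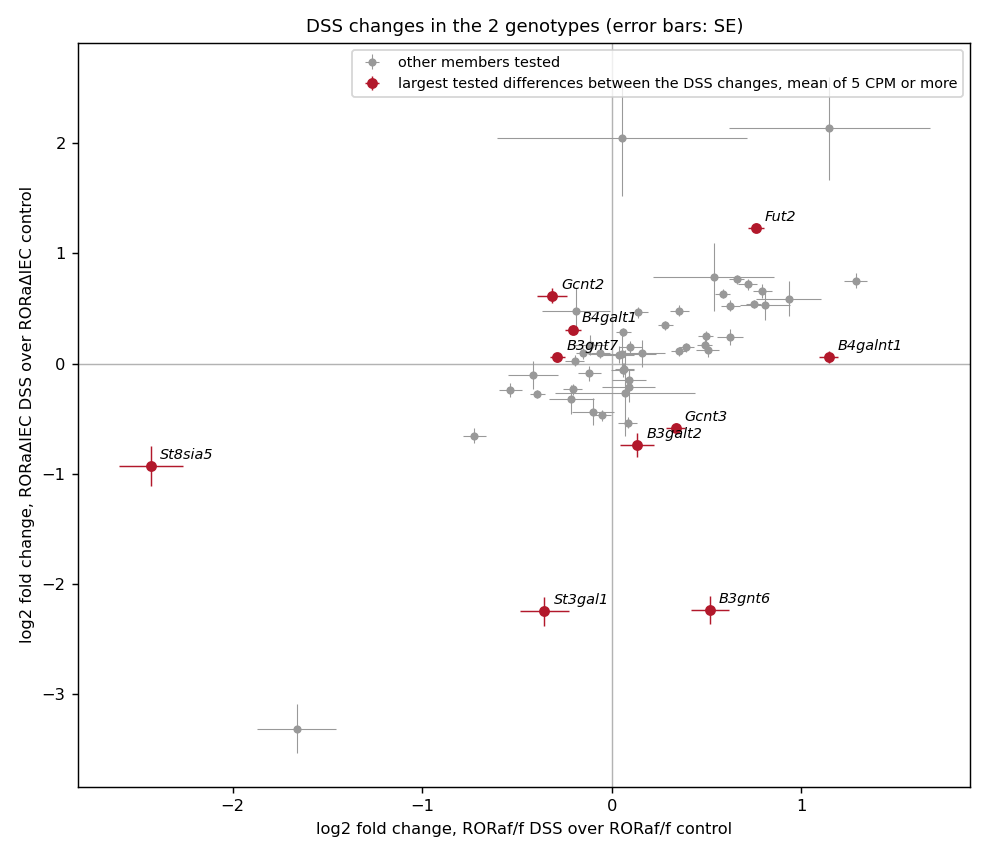
Log2 fold change of DSS over control in RORaf/f libraries (horizontal axis) and in RORaΔIEC libraries (vertical axis) for the 57 tested members, with SE as error bars. Red points mark the 5 largest positive and 5 largest negative tested differences between the 2 changes, among genes of at least 5 CPM on average. B3gnt6, for example, lies at 0.52 in RORaf/f and -2.24 in RORaΔIEC.

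Whether DSS acted differently in the genotypes was tested directly, as the DSS change in RORaΔIEC minus that in RORaf/f. The difference passed the test for 26 of the 57 members, 45.6%, where 21.4% of all tested genes did. It was negative for 16 (10.6% of all genes) and positive for 10 (10.8% of all genes). No Galnt gene was called positive and 6 of 12 were called negative. Among members averaging at least 5 CPM, the largest negative values were those of B3gnt6 (-2.75 ± 0.16, adjusted p = 6.45e-08), St3gal1 (-1.89 ± 0.19, adjusted p = 1.11e-05), B4galnt1 (-1.08 ± 0.08, adjusted p = 2.93e-07), Gcnt3 (-0.92 ± 0.07, adjusted p = 3.45e-07) and B3galt2 (-0.87 ± 0.14, adjusted p = 0.000543), all on the log2 scale with SE. Galnt17, below that level, stood at -1.65 ± 0.34 (adjusted p = 0.00337). The largest positive ones were those of St8sia5 (1.5 ± 0.26, adjusted p = 0.00103), Gcnt2 (0.93 ± 0.10, adjusted p = 2.71e-05), B4galt1 (0.51 ± 0.06, adjusted p = 6.25e-05), Fut2 (0.47 ± 0.06, adjusted p = 7.44e-05) and B3gnt7 (0.34 ± 0.05, adjusted p = 0.000431). Without RORaf/f DSS replicate 1 the number of positive members was 6.

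**Figure D5:**
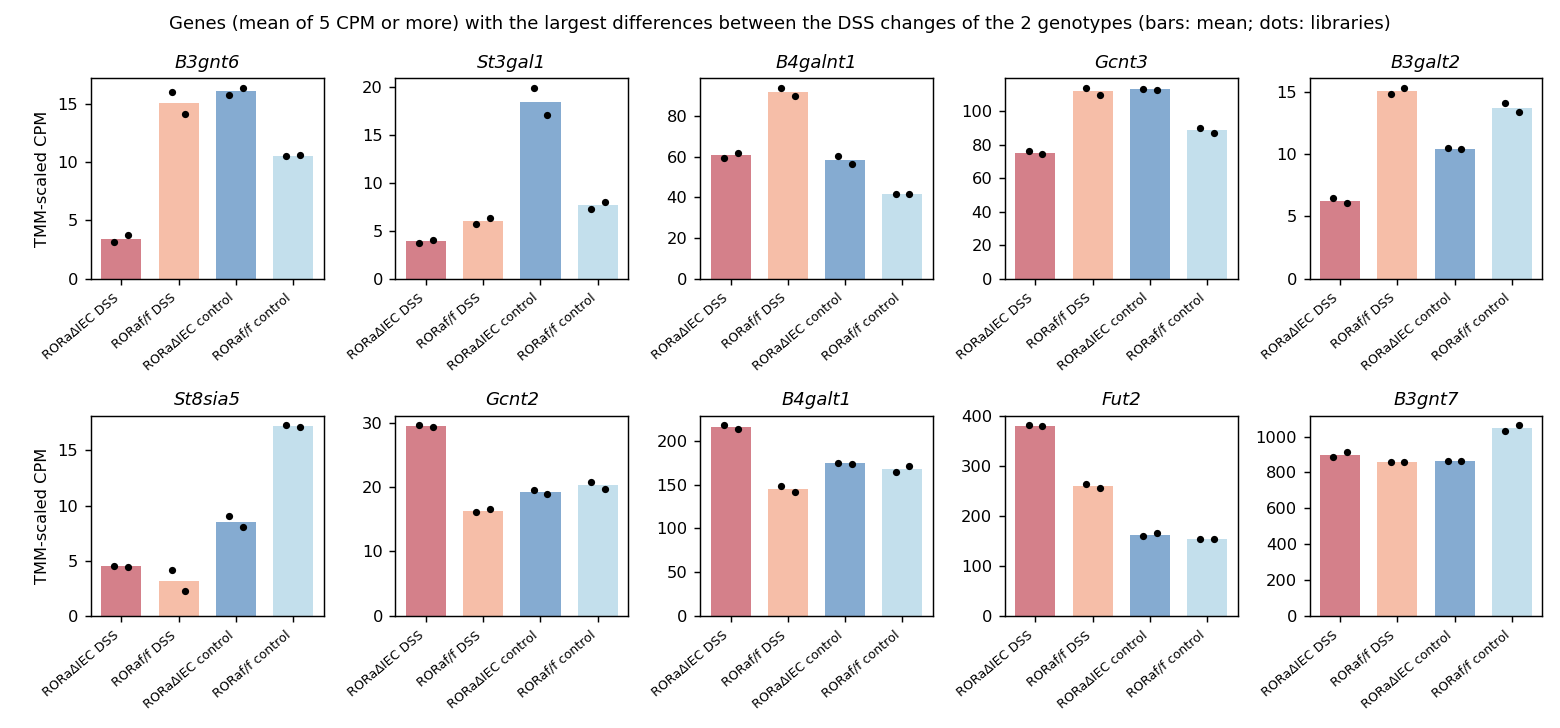
CPM of the genes with the 5 largest positive and 5 largest negative tested differences between the DSS changes, among those averaging 5 CPM or more. Vertical axes start from 0, each on its own scale, with bars for the mean of 2 libraries and dots for the libraries. B3gnt6 and Gcnt3 are lowest in RORaΔIEC DSS, whereas Gcnt2, B4galt1 and Fut2 are highest there.

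Genes that work beside the members gave the following counts, and no list was tested as a set. The shares over all tested genes apply to this list and to those that follow. In RORaΔIEC, 21.3% of all genes were called higher and 17.7% lower after DSS, and 9.19% and 6.22% without DSS. With DSS against control, 18.9% rose and 18.3% fell in RORaf/f, and 21.7% rose and 19.8% fell in RORaΔIEC. Of the mucin list, 9 of 15 genes were tested, and after DSS 4 were lower and 2 higher in RORaΔIEC. Muc2, which carries most of these chains in the goblet cell, had 2016 and 1806 CPM in RORaΔIEC DSS, 3219 and 2965 CPM in RORaf/f DSS, 4281 and 4226 CPM in RORaΔIEC control and 3346 and 3498 CPM in RORaf/f control libraries. It was higher in RORaΔIEC without DSS (log2 fold change 0.31 ± 0.05, adjusted p = 0.000805) and lower with DSS (-0.69 ± 0.05, adjusted p = 1.2e-07). Muc13, a membrane mucin, had 3288 and 3114 CPM in RORaΔIEC DSS, against 2414 to 2531 CPM in the other libraries (log2 fold change 0.36 ± 0.04 over RORaf/f DSS, adjusted p = 3.42e-06). Without DSS, 3 mucin genes were higher and 1 lower in RORaΔIEC. With DSS against control, 3 rose and 3 fell in RORaf/f, and 2 rose and 3 fell in RORaΔIEC.

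Other capping genes outside the symbol rule numbered 11, of which 9 were tested. After DSS, 5 were lower and 1 higher in RORaΔIEC, and without DSS 1 was lower and 1 higher. Cmah, which turns one form of sialic acid into another before it is transferred, had 7.54 and 6.29 CPM in RORaΔIEC DSS, 17.2 and 14.3 CPM in RORaf/f DSS, 11 and 10.2 CPM in RORaΔIEC control and 7.11 and 6.5 CPM in RORaf/f control libraries. It was lower in RORaΔIEC with DSS (log2 fold change -1.19 ± 0.12, adjusted p = 3.84e-06) and higher without DSS (0.63 ± 0.13, adjusted p = 0.00504). A4gnt, which caps gland mucins, was lower in RORaΔIEC DSS (-0.69 ± 0.10, adjusted p = 0.000112), and so was Abo, the blood group transferase (-0.59 ± 0.10, adjusted p = 0.000476).

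Genes that supply nucleotide sugars gave 6 higher and 6 lower of 22 tested between the genotypes after DSS, and 3 higher and 2 lower without DSS. Gne, the first enzyme of sialic acid synthesis, was lower in RORaΔIEC with DSS (-0.33 ± 0.04, adjusted p = 1.42e-05) and without (-0.26 ± 0.04, adjusted p = 0.00044). With DSS against control, 9 of the 22 rose in RORaf/f and 6 in RORaΔIEC, led in both by Gmds, of GDP-fucose synthesis (0.63 ± 0.05 in RORaΔIEC, adjusted p = 1.19e-07, and 0.48 ± 0.05 in RORaf/f, adjusted p = 4.62e-06). N-glycan branching gave 3 higher and 2 lower of 12 tested in RORaΔIEC DSS, and 1 of each in RORaΔIEC control. Mgat4c was higher in RORaΔIEC under both treatments (0.16 ± 0.04 with DSS, adjusted p = 0.00487, and 0.43 ± 0.04 without, adjusted p = 9.48e-06). Of 5 sulfotransferases tested, 1 was lower in RORaΔIEC DSS, whereas 2 were lower and 1 higher in RORaΔIEC control. Gal3st2, which sulfates galactose on mucins, was lower without DSS (-0.66 ± 0.06, adjusted p = 8.43e-06). Of 10 sialidases and exoglycosidases tested, which trim the chains in lysosomes, 3 were lower and 1 higher in RORaΔIEC DSS, and 2 were lower in RORaΔIEC control. Neu1, the lysosomal sialidase, fell with DSS in RORaΔIEC (-0.68 ± 0.05, adjusted p = 2.78e-08) and in RORaf/f (-0.84 ± 0.04, adjusted p = 5.41e-09).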

How the data were processed

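RNA was sequenced from distal colon epithelial cells in 8 libraries, 2 for each of 4 groups, as the titles assign them. The deposited tables hold an expected count per gene, as RSEM writes it per the file headers, with 9.17% to 9.75% of the values per library not whole. The deposited TPM values are corrected for effective gene length, per the file headers. The deposited FPKM values were not used. DESeq2 1.18.1, RSEM 1.3.0, STAR 2.5.3a and mm10 appear in the submitters' processing notes with no roles. The annotation release and strand setting are not given in the sources used here.

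Expected counts were rounded and tested in R 4.3.3 with edgeR 4.0.16: filterByExpr kept 14991 genes, TMM factors scaled the libraries, and 1 quasi-likelihood fit with group means used all 8 (glmQLFit, glmQLFTest, 4 residual degrees of freedom, two-sided). P-values were adjusted by the Benjamini-Hochberg method over all tested genes within a comparison, with 0.05 as threshold. The SE of a log2 fold change is its size divided by the square root of the F statistic. Replicates differed by more than counting error, with chi-square values, divided by their degrees of freedom, of 5.09 in RORaΔIEC DSS, 1.84 in RORaf/f DSS, 1.30 in RORaΔIEC control and 2.21 in RORaf/f control, and the common biological coefficient of variation was 3.49%. In each library 3 counts corresponded to 0.15 to 0.191 CPM, which covers counting error only. The procedure was tested on simulated data. TPM and CPM levels carry no test of their own.

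The members, lists, tests and alternatives were chosen with earlier results of these data known. Members given in full were, per comparison of 2 groups, the up to 8 largest rises and 8 largest falls that passed the test and averaged 5 CPM or more, for the interaction the up to 5 largest in each direction, and from each list up to 3 genes with the smallest p. Other members are named as examples. Alternatives were median-of-ratios (RLE) size factors within edgeR, DESeq2's Wald test (1.42.0), and no filter or at least 1 CPM in 2 libraries. Others were effective-length offsets, only the groups compared, a replicate block and leaving out each library. Gene positions and exon overlaps are those of GENCODE M21 (mm10), which held all 77 member identifiers, 67 with the same version. Overlaps of other members are not all given. Promoter windows are from RefSeq (GRCm38.p6).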

Additional observations from a re-analysis of the deposited data

Results flagged for a closer look

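For 26 members the DSS change in RORaΔIEC minus the DSS change in RORaf/f differed from 0 in a direct test, the interaction term of the edgeR fit with Benjamini-Hochberg adjustment. All values are on the log2 scale.

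Among sialyltransferases the difference was 1.5 for St8sia5 and 0.22 for St3gal6, and it was -0.42 for St6galnac2, -0.62 for St3gal3 and -1.89 for St3gal1. St8sia5 fell with DSS in both genotypes, less so in RORaΔIEC. Among core and branching genes it was 0.93 for Gcnt2 and 0.30 for Gcnt1, and it was -0.21 for C1galt1, -0.92 for Gcnt3 and -2.75 for B3gnt6. Among the initiating Galnt genes it was negative in each of the 6 that passed, with -0.24 for Galnt6, -0.25 for Galnt4, -0.25 for Galnt10, -0.32 for Galnt7, -0.39 for Galnt5 and -1.65 for Galnt17. The first 5 of these were called higher with DSS in both genotypes, with smaller changes in RORaΔIEC. The calls in RORaΔIEC of Galnt4 (without RORaΔIEC control replicate 2, adjusted p = 0.109), Galnt7 (without RORaΔIEC control replicate 1, 0.0878), Galnt5 (without RORaΔIEC DSS replicate 1 or either RORaΔIEC control library, 0.0621 to 0.172) and Galnt6 (without any library but RORaΔIEC DSS replicate 2, 0.0598 to 0.178) did not hold.

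Among chain-extending genes the difference was 0.51 for B4galt1, 0.34 for B3gnt7, 0.32 for B3gnt5 and 0.23 for B3gnt3, and it was -0.38 for B4galt6 and -0.87 for B3galt2. In fucosylation it was 0.47 for Fut2 and 0.24 for Fut4, and in GalNAc capping -0.54 for B4galnt2 and -1.08 for B4galnt1.

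The smaller differences stood close to the threshold. St3gal6, C1galt1, Gcnt1, Fut4, B3gnt3, Galnt6, Galnt4, Galnt10 and Galnt5 each lost the call when at least 1 of the 6 libraries outside RORaΔIEC DSS was left out, with adjusted p between 0.0507 and 0.187. Where calls were lost, each of the 9 kept its sign, and the values that moved most were 0.21 for Gcnt1 (without RORaf/f DSS replicate 1) and 0.16 for St3gal6 (without RORaΔIEC control replicate 2). With DESeq2 the calls of Gcnt1 (adjusted p = 0.113), Galnt5 (0.072), St3gal6 (0.0706) and C1galt1 (0.0542) were lost too. Effective-length offsets removed those of Gcnt1 (0.0797), Galnt5 (0.0591), St3gal6 (0.0576), C1galt1 (0.0546) and Galnt10 (0.0521). Galnt17 kept its call without any 1 library but not with effective-length offsets (-1.14, adjusted p = 0.164). Goblet markers were lower and neutrophil markers higher in RORaΔIEC DSS than in RORaf/f DSS, at the values given with the depth and the genotype comparison after DSS, and their part in these differences was not tested.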

How the results depend on the processing

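Of 147 called results of members, 105 kept their call and sign under every alternative tried. Over 2327 recomputed values, 2148 kept call and sign, 179 lost the call and 0 changed sign. Counts moved by over 1.5 times in the following cases, and the cause was not tested. With DESeq2's Wald test, 6 members in place of 10 were higher in RORaΔIEC control than in RORaf/f control. With effective-length offsets that number was also 6. Over all genes, DESeq2 called 3801 for RORaΔIEC against RORaf/f after DSS (edgeR 5855), 1246 without DSS (edgeR 2310), 3409 for DSS in RORaf/f (edgeR 5573) and 1684 for the interaction (edgeR 3208). Effective-length offsets gave 1290 without DSS and 1794 for the interaction.

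Leaving out each library in turn gave 10 to 11 members higher, 15 to 23 lower and 4107 to 6187 genes called for RORaΔIEC against RORaf/f after DSS. Without DSS it gave 6 to 14 higher, 5 to 12 lower and 950 to 3206 genes. For DSS in RORaΔIEC it gave 17 to 24 higher, 12 to 16 lower and 4612 to 6246 genes, and for DSS in RORaf/f 21 to 22 higher, 9 to 14 lower and 3689 to 6471 genes. The interaction gave 6 to 12 positive, 12 to 16 negative and 1911 to 4504 genes. A group left with 1 library was assumed to vary like the others.

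Deviations of same-numbered libraries correlated between -0.17 and 0.26 over 9718 genes, which does not settle whether replicate numbers pair the samples. The correlation was 0.26 between the DSS groups, and RORaf/f control correlated at -0.17 with RORaΔIEC DSS and -0.15 with RORaf/f DSS. With the replicate number as a block, 12 members were higher and 19 lower after DSS, 9 and 9 without DSS, 22 and 13 for DSS in RORaΔIEC, 22 and 12 for DSS in RORaf/f, and 10 and 16 for the interaction, and all genes called numbered 5791, 2186, 6142, 5449 and 3085. In a block chosen after seeing the data, with the numbers of the RORaf/f controls crossed, the first pair of counts was 12 and 19. The counts were 12 and 10 without DSS, and the interaction gave 10 and 16. All genes called in that block numbered 6278 after DSS, 2730 without DSS, 6548 for DSS in RORaΔIEC, 5930 for DSS in RORaf/f and 3691 for the interaction.

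With 2 libraries per group, members near 1 CPM such as St8sia1 and St8sia4 rest on few reads, as does Galnt17 in its DSS libraries.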
